A study of Mus musculus with 2 samples.

Results

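The 10 genes described here belong to the Hippo pathway or to its nuclear end. They comprise the coactivator genes Yap1 and Wwtr1, the 4 TEAD transcription factor genes Tead1, Tead2, Tead3 and Tead4, and 4 genes widely used as readouts of TEAD activity, Lats2, Amotl2, Cyr61 and Ctgf. They were found by symbol in the deposited expression table, and all 10 were among its 14261 rows. RNA-seq had been made from TRE-ESC cells, mouse embryonic stem (ES) cells, in suspension in dishes of low adsorption, in N2B27 medium with 2i and LIF. The library labelled with dox (TRE-suspend-adox-36h) came from cells given doxycycline, a drug used to switch on transgenes under a tetracycline-responsive (TRE) promoter. The library without dox (TRE-suspend-36h) came from the same kind of cells given none, and both were labelled 36 h. What the TRE promoter drives is not spelled out in the labels, but the study's title concerns c-Jun, and Jun stood at 3821 with dox and 55 without. There was 1 library per group, so no test was made and the spread between cultures is unknown.

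In the Hippo pathway the kinases Mst1 and Mst2 activate Lats1 and Lats2, which phosphorylate YAP (from Yap1) and TAZ (from Wwtr1), and phosphorylated YAP and TAZ are held in the cytoplasm by 14-3-3 proteins or degraded. When the kinases are off, as in well spread cells under tension, YAP and TAZ enter the nucleus and bind DNA through TEAD factors. In the early mouse embryo this switch separates the outer cells, where YAP and TEAD4 turn on the trophectoderm programme, from the inner cells that give rise to ES cells. These are regulations of proteins, which RNA levels do not report. AP-1, the dimer that c-Jun forms part of, is known to occupy many enhancers together with TEAD factors.

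Values in the table are whole numbers on a normalized scale on which both libraries had quartiles of 14, 62 and 184. Sequencing depth is therefore unknown, and no counting interval can be given. The log2 ratio of a gene is log2 of its value with dox plus 10 over its value without dox plus 10, and the ratio was read only where the larger of both values reached 50, the floor, as it did for 8547 genes. Genes at a ratio of 2-fold or more in either direction are called higher or lower, which only describes this pair of libraries. On this rule 9.23% of the 8547 genes were higher with dox and 5.49% lower, and the median log2 ratio was −0.08. The libraries also differed in other respects. Lars2, a gene known to collect ribosomal RNA reads, stood at 646 with dox and 14907 without, and longer transcripts tended to have higher ratios (Spearman rho 0.28 across 8525 genes, which are not independent replicates). The part of the ribosomal RNA difference in the results was not tested, and ratios with the length trend removed are given where they end a call. Of 8 ES cell markers 5 (Nanog, Esrrb, Tfcp2l1, Zfp42 and Klf4) were lower with dox and 0 higher, while Pou5f1, Sox2 and Dppa5a lay within 2-fold. The summed value of the 8 was 11015 with dox and 17261 without, but none was at 0 in either library. In bulk RNA, fewer cells of a type and less RNA per cell cannot be told apart.

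Of the 10 genes 8 reached the floor. Tead4 and Cyr61 were past 2-fold and higher with dox, Tead2 was past 2-fold and lower, and Yap1, Wwtr1, Tead1, Amotl2 and Ctgf lay within 2-fold. The remaining 2, Tead3 and Lats2, had values under 50 in both libraries. The median log2 ratio of the 8 was 0.40, beside −0.08 over all genes at the floor. With counts this small, 2 of 8 higher and 1 of 8 lower cannot be read as a departure from the shares of all genes, 9.23% and 5.49%. The ratios ran in both directions, and the highest and the lowest belonged to members of the same family, Tead4 and Tead2.

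**Figure D1:**
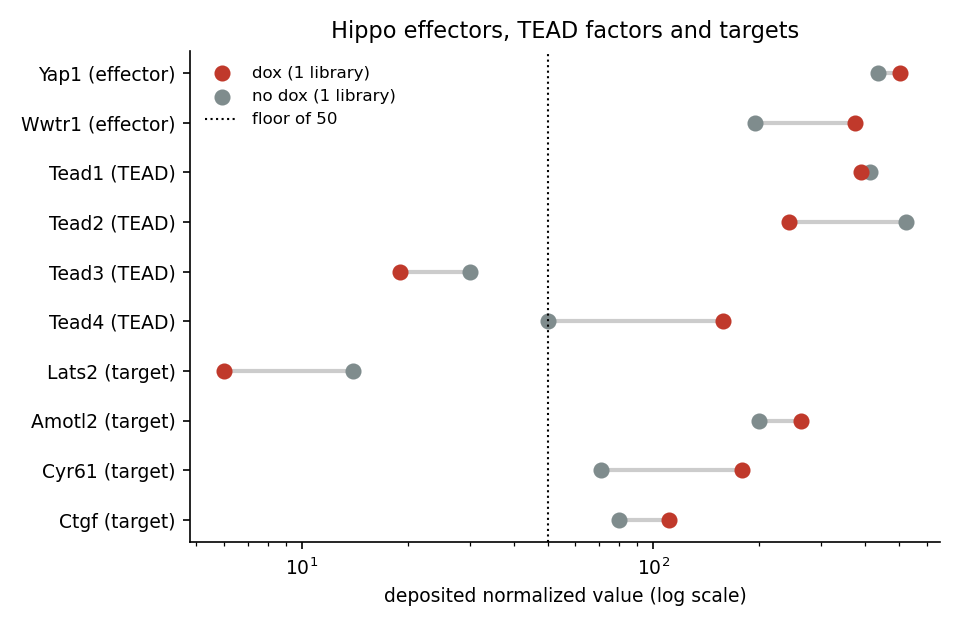
Deposited normalized value of each of the 10 genes (log axis) with dox (red) and without dox (grey), 1 library each; the dotted line is the floor of 50. Tead4 stood at 158 with dox and 50 without, and Tead2 at 244 and 523, while Tead3 and Lats2 lay left of the floor in both libraries.

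Sequence upstream of the annotated start was taken from RefSeq (build GRCm38.p6), which gave 11 windows for 7 of the 10 genes. Windows for Tead1, Tead4 and Ctgf are not used here. In the 250 bases before each start the TEAD core GGAATG was sought on both strands, along with the AP-1 letters TGANTCA and the cyclic AMP response element TGACGTCA, which c-Jun and ATF dimers bind. The windows of 3 genes are shown, since they stand before genes that differ in role (a target and both coactivators) and each holds the TEAD core, printed in capitals (CATTCC is the same core on the other strand). The Cyr61 window lies on chromosome 3 (chr3:145649986-145650235, minus strand), the Wwtr1 window at chr3:57575911-57576160, minus strand, and the Yap1 window at chr9:8004597-8004846, minus strand.
Cyr61: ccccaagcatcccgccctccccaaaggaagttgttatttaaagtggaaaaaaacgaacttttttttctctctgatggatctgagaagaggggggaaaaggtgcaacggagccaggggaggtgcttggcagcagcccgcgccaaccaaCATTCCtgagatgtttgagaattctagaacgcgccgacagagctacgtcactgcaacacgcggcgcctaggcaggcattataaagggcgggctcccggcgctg
Wwtr1: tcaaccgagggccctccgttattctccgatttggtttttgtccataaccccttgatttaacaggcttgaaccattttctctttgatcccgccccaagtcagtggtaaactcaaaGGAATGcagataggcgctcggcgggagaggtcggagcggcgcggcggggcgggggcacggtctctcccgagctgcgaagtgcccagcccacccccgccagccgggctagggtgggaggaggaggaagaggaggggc
Yap1: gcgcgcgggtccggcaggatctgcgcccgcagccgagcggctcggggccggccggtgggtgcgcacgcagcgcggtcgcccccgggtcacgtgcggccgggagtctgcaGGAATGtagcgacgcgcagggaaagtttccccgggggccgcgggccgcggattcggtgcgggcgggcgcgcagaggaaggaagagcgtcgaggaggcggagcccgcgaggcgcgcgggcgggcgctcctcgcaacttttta
In these windows the core stands from 103 to 98 bases before the start of Cyr61, from 136 to 131 before that of Wwtr1 and from 141 to 136 before that of Yap1. The core was also in the window of Amotl2, from 65 to 60 bases before the start, and in 2 of the 3 windows of Tead3, so 5 of the 7 genes and 7 of the 11 windows had it. Some starts lie inside the GENCODE gene, so not all of this sequence is upstream of it. Of the 250 bases, 136 of the Amotl2 window and 217 and 12 of the Tead3 windows with the core fall in annotated exons. The same holds for 17 bases of the Yap1 window shown and 34 of the Wwtr1 window not shown. In the Cyr61 and Wwtr1 windows shown it holds for 0 bases. Exons of any gene were counted. Over all 32851 windows of this length 12.6% held the TEAD core. Overlapping windows of Wwtr1 share the same match, so the windows are not independent. Neither the single window of Tead2, the gene that was lower with dox, nor those of Lats2 held the core. The AP-1 letters and the cyclic AMP response element were in the windows of 0 of the 7 genes, and in 6.75% and 1.55% of all windows. A match describes letters and not a bound site, and distal enhancers were not searched.

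The coactivators were both listed at larger values with dox, and Wwtr1 by more. Yap1, which encodes YAP, lies on chromosome 9 from 7931999 to 8004596 on the minus strand (GENCODE M21, GRCm38, for all gene positions here). It stood at 503 with dox and 435 without, a log2 ratio of 0.21. This is a small difference, and 32.2% of genes at the floor had a higher ratio. Wwtr1, which encodes TAZ, lies on chromosome 3 from 57455649 to 57575910 on the minus strand and stood at 374 with dox and 195 without. Its log2 ratio of 0.91 (1.87-fold) lies just inside the 2-fold threshold, and 10.3% of genes had a higher one.

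The balance between the pair was accordingly different. Per kb of the longest coding transcript, the Yap1 level was 121 with dox and 104 without, and the Wwtr1 level was 79.6 with dox and 41.5 without. Yap1 was the larger of the pair in both libraries, by 1.51 times with dox and 2.51 times without. By value it was the larger by 1.34 times with dox and 2.23 times without. Wwtr1 made up 39.8% of their summed level per kb with dox and 28.5% without. The summed level was 200.2 with dox and 146 without. Whether the values had already been divided by length is not stated, so the levels per kb are uncertain.

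Among the DNA-binding partners the pattern was mixed, since 1 TEAD gene was higher, 1 was lower and 1 lay within 2-fold. Tead4, the TEAD gene needed for trophectoderm in the mouse embryo, stood at 158 with dox and 50 without, a log2 ratio of 1.49 (2.80-fold). It had the highest ratio of the 8 genes, and 5.05% of genes at the floor had a higher one. Tead4 lies on chromosome 6 from 128224288 to 128300823 on the minus strand. By rank among all rows it was 4068th with dox and 7731st without.

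Tead2, a TEAD gene known to be active in the early mouse embryo, stood at 244 with dox and 523 without. Its log2 ratio was −1.07 (2.10-fold lower), and 4.45% of genes at the floor had a lower one. It stands close to the threshold: with a pseudocount of 50 the log2 ratio was −0.96, and with the median of all genes set to 0 it was −0.99. Tead2 lies on chromosome 7 from 45215753 to 45233644 on the plus strand. It ranked 2700th among all rows with dox and 1062nd without, so without dox it had the largest value of the 10 genes.

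Tead1, a broadly expressed TEAD gene needed for heart development in the mouse, stood at 389 with dox and 415 without. Its log2 ratio of −0.09 was close to the median of all genes, and was −0.41 with the length trend removed. Its longest coding transcript, at 9964 nt, is the longest of the 10 genes. Tead1 lies on the plus strand of chromosome 7 as well, from 112679318 to 112906807. Tead3 stood at 19 with dox and 30 without, under the floor in both, and no ratio is read from these values. It lies on chromosome 17 from 28331671 to 28350817 on the minus strand.

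**Figure D2:**
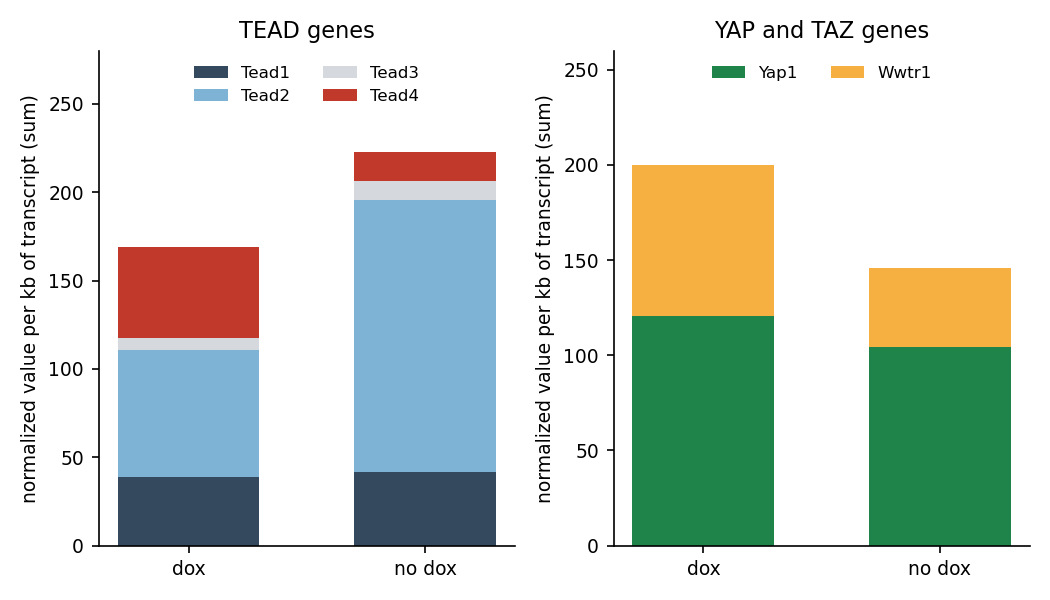
Normalized value per kb of the longest coding transcript, stacked over the 4 TEAD genes (left) and over Yap1 and Wwtr1 (right), with dox and without dox (1 library each). Tead4 made up 30.4% of the TEAD sum with dox and 7.30% without, and Wwtr1 made up 39.8% of the right-hand sum with dox and 28.5% without. Whether the deposited values had already been divided by length is unknown.

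Levels are given per kb, as a way to set genes of unlike length beside each other. The normalization is not stated, so it is unknown whether the values had already been divided by length. If they had, the levels per kb are divided by length again, and the shares by value apply instead. Both the total of TEAD transcripts and their make-up differed between the libraries. The summed TEAD level was 169 with dox and 223 without, 1.32 times lower with dox. Tead2 made up 42.5% of it with dox and 69.1% without, and led in both on this scale. Tead4 made up 30.4% with dox, next in order after Tead2, and 7.30% without, below Tead1 as well. Tead1 made up 23.1% with dox and 18.7% without, and Tead3 stood lowest in both at 4.05% with dox and 4.85% without. By value, with no division by length, Tead1 led with dox at 48.0% of the TEAD sum, with Tead2 at 30.1% and Tead4 at 19.5%. Without dox the shares by value were 51.4% for Tead2, 40.8% for Tead1 and 4.91% for Tead4.

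The Tead2 level per kb was 9.47 times that of Tead4 without dox, whereas with dox it was 1.40 times that of Tead4. Per kb, Tead4 stood above Tead1 with dox, at levels of 51.4 and 39.0, and below it without dox, at 16.3 and 41.6. By value Tead4 was below Tead1 in both libraries, with Tead1 at 2.46 times Tead4 with dox and 8.3 times without. Whether neighbours in these orders differ beyond the spread between cultures cannot be said with 1 library each. The isoforms in these cells are unknown, so the levels per kb depend on the annotated length.

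The annotated transcripts of the TEAD paralogs share few exact stretches of 50 nt with other genes. How the reads themselves were assigned was not examined. Of the stretches of 50 nt in the longest coding transcripts, 0.33% of those of Tead4 and 0.37% of those of Tead3 were found in the other of that pair, and no stretch of Tead2 was found in another gene. For Tead1 0.29% of stretches were shared with other genes.

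The 4 genes used as readouts of TEAD activity had no common size of difference. Cyr61 (now Ccn1), which encodes a secreted matricellular protein that binds integrins, stood at 179 with dox and 71 without. Its log2 ratio was 1.22 (2.33-fold), and 6.76% of genes at the floor had a higher one. With a pseudocount of 50 it was 0.92, inside the threshold. Cyr61 is a short gene on chromosome 3 from 145646976 to 145649981, on the minus strand.

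Ctgf (now Ccn2), the related connective tissue growth factor gene, stood at 111 with dox and 80 without, a log2 ratio of 0.43 (1.34-fold). It lies on chromosome 10 from 24595442 to 24598683 on the plus strand, and 8.60% of its 50-nt stretches are also found, on the opposite strand, in the overlapping noncoding gene Gm15270. Strand-specific counting is not stated, so reads of Ctgf and Gm15270 in the overlap cannot be told apart. Per kb, the Cyr61 level was 1.99 times that of Ctgf with dox and 1.09 times without. By value it was 1.61 times with dox and 0.89 times without, so their order without dox depends on the division by length.

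The other 2 readouts act back on the pathway. Amotl2, an angiomotin family gene whose protein holds YAP at junctions, stood at 263 with dox and 200 without, a log2 ratio of 0.38 (1.30-fold). It lies on chromosome 9 from 102716672 to 102733418 on the plus strand. Lats2, the kinase gene that restrains YAP and is itself a TEAD target, stood at 6 with dox and 14 without, under the floor in both. Lats2 lies on chromosome 14 from 57689662 to 57758388 on the minus strand, and 56.5% of its 50-nt stretches are also annotated in transcripts of the overlapping gene Gm49361. Its low value is therefore uncertain, since reads could have been divided between these genes or left out.

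Set beside each other, Cyr61 was past 2-fold, and Ctgf and Amotl2 were larger with dox by less. Lats2 was under the floor in both libraries, so no direction is read from its values.

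**Figure D3:**
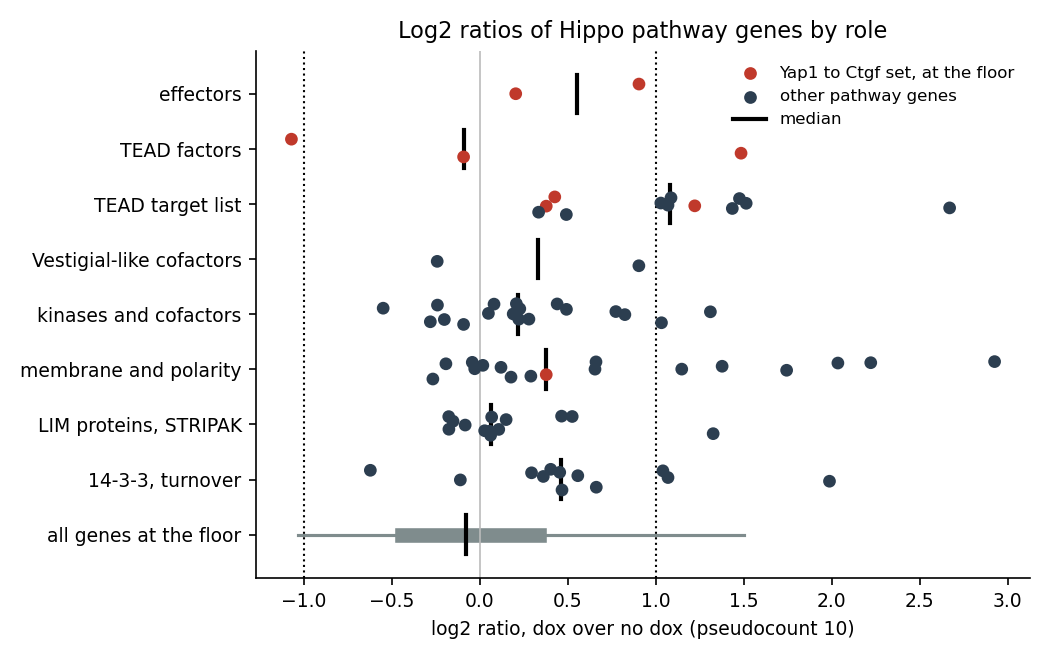
Log2 ratio, dox over no dox, of each Hippo pathway gene at or above the floor, by role; red points are from the set of 10 genes, dark points are other pathway genes, black bars are medians and dotted lines mark 2-fold. The lowest line shows all 8547 genes as the 25th to 75th (thick) and 5th to 95th (thin) percentiles; the target list has a median of 1.08 and the other lists of at least 5 genes lie between 0.06 and 0.46.

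To place the 4 readouts, a longer list of 22 genes known as YAP and TEAD targets, mainly in human cancer cells, was examined, which includes them. Of these, 21 had a row, 12 of which reached the floor, with 8 past 2-fold higher with dox and 0 lower, beside 9.23% of all genes higher. Their median log2 ratio was 1.08, beside −0.08 over all genes at the floor. Without the 4 readouts, 7 of 9 were higher, 0 were lower and the median ratio was 1.09. The ratios of Amotl2 and Ctgf lay below this median.

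The highest ratio in the list was that of Gadd45a, a growth arrest gene that p53 and stress also induce, at 181 with dox and 20 without. Dock5, which encodes a Rac activator, stood at 504 with dox and 180 without. Igfbp3, which encodes an IGF-binding protein, stood at 90 with dox and 25 without. Each of these was past 2-fold, at log2 ratios of 2.67, 1.44 and 1.51.

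Axl, a receptor tyrosine kinase gene, stood at 54 with dox and 13 without. Nt5e, the ectonucleotidase gene, stood at 58 with dox and 22 without. Myof, the myoferlin gene, stood at 874 with dox and 423 without, just past 2-fold. The 8th gene past 2-fold, Ptpn14, encodes a phosphatase that binds YAP and stood at 116 with dox and 50 without. Asap1, at 308 with dox and 216 without, and Arhgef17, at 72 and 55, lay within 2-fold with Amotl2 and Ctgf.

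These counts lean on low values. Axl, Igfbp3, Gadd45a and Nt5e reached the floor only through their value with dox and so had to be larger there, and 9 of the 21 genes did not reach it. Among the genes under the floor Fjx1 stood at 2 with dox and 22 without, while Ccdc80 stood at 33 with dox and was listed at 0 without. Ankrd1 and Rbms3, the first a standard YAP readout in other cells, were listed at 0 in both libraries. With the floor set on the mean of both values, which was added once the values were known, 6 of 10 were higher, beside 8.08% of all genes. With a pseudocount of 50, 2 of the 12 were higher, and with a floor of 100, 5 were. With the length trend removed Myof and Ptpn14 had log2 ratios of 0.77 and 0.74.

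Among the pathway's kinases, scaffolds and regulators other than the 10 genes, Ptpn14 included, 61 reached the floor, of which 12 were higher with dox, 0 lower and 49 within 2-fold. That is 19.7%, beside 9.23% of all genes, but 5 of the 12 (Amot, Crb3, Patj, Tnik and Limd1) reached the floor only through their value with dox and so had to be larger there. The median log2 ratio of the 61 was 0.23. With the floor on the mean of both values 10 of 57 were higher, which is 17.5%, beside 8.08% of all genes. Of these 12, 6 belong to the membrane and polarity group.

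In that group, which feeds signals from junctions and the cell surface into the kinases, 6 of 17 genes at the floor were higher and 0 were lower, beside 9.23% and 5.49% of all genes, and the median log2 ratio was 0.38. Amot, the founding angiomotin gene, stood at 104 with dox and 5 without, a log2 ratio of 2.93 that ranged from 1.49 with a pseudocount of 50 to 4.13 with a pseudocount of 1. It is the paralog of Amotl2, which lay within 2-fold, as did Amotl1 at 151 with dox and 138 without. Patj and Crb3, genes of the Crumbs polarity complex at the apical membrane, stood at 172 with dox and 29 without and at 72 with dox and 10 without. Wwc1, which encodes Kibra, stood at 315 with dox and 87 without.

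Frmd6, which encodes the FERM protein willin, stood at 424 with dox and 157 without, and Dlg5, a scaffold gene, at 573 with dox and 253 without. The ratio of Dlg5 was 1.15, and 0.87 with the length trend removed. By contrast Nf2, the gene of merlin, stood at 502 with dox and 512 without, and Scrib and Llgl1, both genes of the basolateral polarity complex, lay within 2-fold. Fat4 was listed at 0 in both libraries. Of the 17 genes 4 reached the floor only through their value with dox, and none only through the value without.

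The kinase group held 18 genes at the floor, of which 2 were higher, 0 lower and 16 within 2-fold, 11.1% beside 9.23% of all genes and so near the background. Lats1, the paralog of Lats2, stood at 91 with dox and 47 without, a log2 ratio of 0.83. The Mst genes Stk4 and Stk3 stood at 236 with dox and 200 without and at 104 with dox and 121 without. None of these core kinases was past 2-fold. The 2 genes past it act in parallel to Mst on Lats: Map4k4 stood at 1394 with dox and 676 without, and Tnik at 57 with dox and 17 without. Their ratios of 1.03 and 1.31 were 0.83 and 0.95 with the length trend removed, and 0.99 and 0.68 with a pseudocount of 50.

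Negative regulators of the kinases had 1 of 13 genes higher and 0 lower, which is 7.69% higher beside 9.23% of all genes and so near the background, with a median of 0.06 that became −0.05 with the length trend removed. Limd1, which encodes a LIM protein that binds Lats, stood at 133 with dox and 47 without, a log2 ratio of 1.33 that was 0.92 with a pseudocount of 50. Its relative Ajuba stood at 426 with dox and 409 without. No gene of the STRIPAK phosphatase complex, which switches off Mst, was past 2-fold at the floor. Among them Ppp2r1a, its scaffold, stood at 1024 with dox and 1157 without.

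Of 12 genes that retain, modify or degrade YAP 3 were higher and 0 lower, beside 9.23% and 5.49% of all genes, and the median log2 ratio was 0.46. Sfn, the 14-3-3 sigma gene of epithelial cells, stood at 1533 with dox and 379 without. Ywhaz, the 14-3-3 zeta gene, stood at 2676 with dox and 1295 without, beside Ptpn14. The remaining 14-3-3 genes lay within 2-fold, with Ywhae the most abundant by value at 5343 with dox and 4353 without. Of the Vestigial-like cofactors, which compete with YAP for TEAD factors, Vgll4 stood at 78 with dox and 37 without, a log2 ratio of 0.90, and Vgll3 at 45 with dox and 55 without. With a pseudocount of 1 the ratio of Vgll4 was 1.06.

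Because Tead4 is known for trophectoderm, markers of that tissue are given beside it. The keratin genes Krt7, Krt8 and Krt18 were higher with dox, at 374, 2672 and 395 with dox and at 0, 111 and 10 without. They were the only 3 markers of this list at the floor, and 9.23% of all genes were higher. Krt7 and Krt18 reached the floor only through their value with dox and so had to be larger there. The defining regulators were low: Cdx2 stood at 34 with dox and 28 without, Eomes at 18 and 32, Gata3 at 6 and 1, and Hand1 at 17 with dox and was listed at 0 without. The summed value of the 7 markers found was 3516 with dox and 182 without, nearly all of it from the keratins, which other epithelia also express. None of 4 primitive endoderm markers found, among them Gata6 at 8 with dox and 4 without, and none of 8 fibroblast markers reached the floor. Their sums were 25 with dox and 24 without, and 72 with dox and 29 without, and Dcn and Lum were listed at 0 in both libraries. The part of other cell types in the ratios was not tested.

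The genes whose pair of values came nearest to that of Tead4, by distance on the log2 scale over the 2 libraries, were Gcnt1 at 157 with dox and 49 without, Ctsz at 154 and 49, and Unc13b at 153 and 52. In 2 libraries such a pattern is a single ratio at a given level, and 28 genes lay within 0.25 of Tead4.

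**Figure D4:**
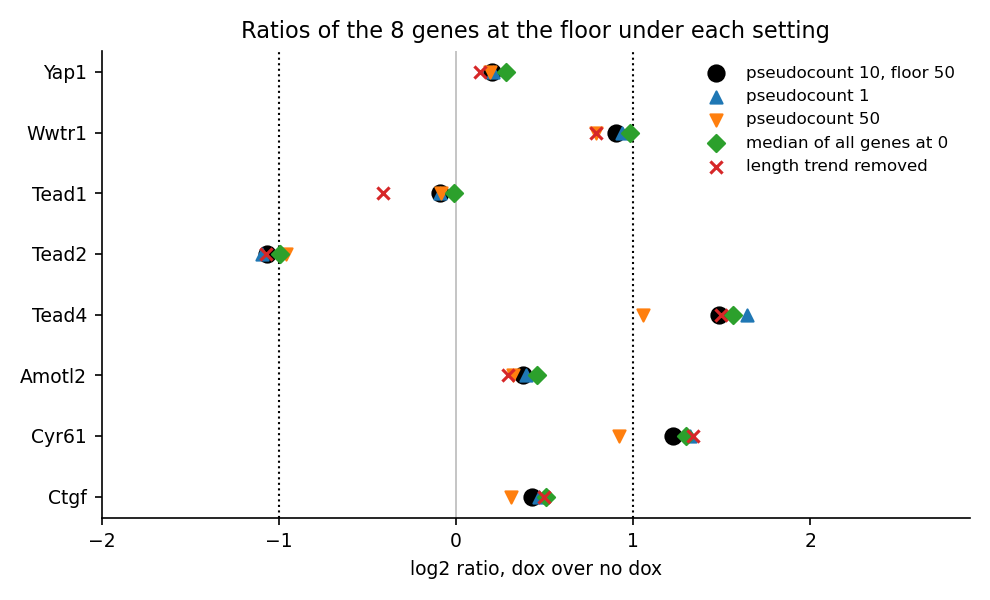
Log2 ratio, dox over no dox, of the 8 genes at the floor with a pseudocount of 10 (black circles) and under other pseudocounts, centring and a length correction; dotted lines mark 2-fold. Tead4 stayed past 2-fold at 1.06 with a pseudocount of 50, whereas Cyr61 was at 0.92 and Tead2 at −0.96.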

How the data were processed

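Total RNA had been extracted with TRIzol, and libraries made with an Illumina TruSeq RNA kit were run on a NextSeq 500, per the labels' protocols. The submitters' processing notes name bcl2fastq, Bowtie2, RSEM and mm10, with versions, annotation, normalization and gene filter not given in the sources used here. Each deposited value was treated as a score (normalized, then rounded, by the authors), an inference from the values: 75.5% of sorted positions held exactly equal values in both libraries. Reads per library are therefore unknown and no count model was used.

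Log2 ratios (pseudocount 10) were computed over the whole table for genes whose larger value was at least 50, with 2-fold as the threshold. The 10 genes, the pathway and marker lists and the rules were chosen with earlier results of these data known. Named genes were the 10 genes, in each list the genes past 2-fold or otherwise those with the largest values, and some named after their values were seen (core kinases, paralogs and genes under the floor). Lars2 was also named so. No test, p-value or SD was possible with 1 library per group. The steps were tested on simulated data whose planted changes were well past 2-fold, in genes with mean values above the floor. Calls near 2-fold or near the floor were not tested in this way. Positions, transcript lengths and 50-nt stretches came from GENCODE M21 on GRCm38, the assembly of mm10, with 99.7% of genes at the floor matched to a length, and upstream windows from RefSeq. The length trend was fitted by lowess (fraction 0.3). Tools were Python 3.11.15, numpy 2.4.6, pandas 2.3.3, statsmodels 0.14.6 and matplotlib 3.10.9.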

Additional observations from a re-analysis of the deposited data

How the results depend on the processing

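Of 56 log2 ratios of the 8 genes at the floor under 7 other settings, 53 kept their direction and side of 2-fold and 0 changed direction. Settings that moved only the floor leave each ratio as it is by construction, so they could add no exceptions. The exceptions were Cyr61 at 0.92 and Tead2 at −0.96 with a pseudocount of 50, and Tead2 at −0.99 with the median of all genes set to 0. Accordingly, with a pseudocount of 50, 1 of the 10 genes was higher and 0 lower, and 2 target genes were higher. With the median set to 0, 0 of the 10 were lower. At a 4-fold threshold 0 were higher and 0 lower, with 1 target and 3 other pathway genes higher. At 1.5-fold 1 other pathway gene was lower, and with a floor of 100, 5 targets were higher. Over all genes 789 were higher and 469 lower. These counts were 498 and 171 with a pseudocount of 50, 1255 and 796 with no floor, 1425 and 1511 at 1.5-fold, and 266 and 55 at 4-fold, and 306 were lower with a floor of 100. A larger pseudocount by construction shrinks the ratios of low values, and thresholds and floors change which genes count; the cause of other changes was not tested. Among 462 ratios of other pathway genes 447 kept their side and 0 changed direction past 2-fold. These also include the settings that moved only the floor, where no ratio could change. The Vestigial-like list gave no median with a floor of 100. No paired analysis was possible because each group held 1 library, which also means that no ratio has an error between cultures.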
